A study of Arabidopsis thaliana with 36 samples.

Results

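The binding described here is what chromatin immunoprecipitation recovered from the plastid genome of sig2-2 seedlings of Arabidopsis thaliana, a line named for SIG2, one of the sigma factors of the plastid. The 6 libraries of sig2-2 seedlings, 3 ChIP and 3 input, were taken by their titles from the 36 samples of the series, and were set beside 3 ChIP and 3 input libraries of Col0 seedlings, the reference line. Seedlings of both lines were 4 days old by their titles, had grown on plates under continuous light with no treatment, and were pooled, 50 to a sample. Crosslinking took 4 h in formaldehyde at 4%, and chloroplasts were enriched before the precipitation. The labels of the seedling libraries do not name the antibody; those of the leaf libraries of the series name RpoB, part of the core of the RNA polymerase that the plastid encodes. Both lines carry the same genotype entry, wild type, so the line of a library was read from its title and its cell line entry, and SIG2 is a nuclear gene whose state cannot be read from plastid coverage. Nothing in the labels says whether replicates came from separate sowings, and p-values then measure only the spread between these samples. The tests also draw on 12 seedling libraries of the lines chl27 and chlm, which enter the common estimate of the spread and are not compared here.

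Plastid genes are transcribed by a bacterial-type RNA polymerase whose core is encoded in the plastid (PEP) and by a nuclear-encoded, phage-type polymerase (NEP). PEP finds its promoters through sigma factors, which are nuclear genes; SIG2 is known for tRNA genes, among them trnE, whose tRNA is also the starting point of chlorophyll and heme synthesis, while SIG6, SIG5, SIG1, SIG3 and SIG4 are each known for other promoters. A line without 1 sigma factor therefore asks which places on the plastid genome the polymerase occupies through the others.

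Coverage was deposited at each of 154477 positions of the plastid genome. Mean coverage was 2091, 2223 and 2242 in the sig2-2 ChIP libraries and 1679, 1956 and 1848 in the sig2-2 inputs, against 2100, 2476 and 1885 in the Col0 ChIP libraries and 1243, 1454 and 1132 in the Col0 inputs. Values below are coverage per position relative to the average of the same library, so that a value of 1 is the plastid average, and enrichment is the log2 of ChIP over the mean of the 3 inputs of the line. Each library was scaled to its own total. A site can therefore gain only where others lose, and more polymerase on each genome cannot be told apart from more genomes with polymerase. The 2 copies of the inverted repeat, which hold the same sequence, were averaged and counted once, apart from ycf1. The long entry, ycf1 (Arthcp087), runs into the second copy and was taken unfolded. The 1032 bp of the other entry, ycf1 (ArthCp070), mirror that end, so this sequence entered both genes.

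In sig2-2 seedlings the ChIP remained uneven over the 113 genes. The rRNA genes, most tRNA genes and a few photosynthesis genes, rbcL, psbN and psbA first among them, stood above input, and most protein-coding genes stood below it. Against input, 36 genes were higher in the ChIP (31.9% of the genes) and 58 were lower (51.3%), by limma with Benjamini-Hochberg adjustment over all genes at 0.05. In Col0 seedlings 41 genes were higher (36.3%) and 63 lower (55.8%). Centring every library on its median gene raised sig2-2 enrichment by 0.19 at the median gene and gave 46 genes above and 44 below input. The centring sets the median of every library to the same value, so a near-even count is largely built in.

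Of the 41 genes that were higher in Col0 ChIP, 31 were also higher in sig2-2, 6 did not pass the test and 4 were lower. The 4 that were below input in sig2-2 were the tRNA genes trnD, trnY, trnV (ArthCt103) and trnL (ArthCt126); with median-gene centring no tRNA gene was below input. The difference between the lines was tested as well: enrichment was higher in sig2-2 than in Col0 at 60 genes (53.1%) and lower at 38 (33.6%). Median-gene centring shifted these differences by −0.34 and gave 50 higher and 50 lower, a balance that is likewise largely built in. Of the 36 genes above input in sig2-2, 26 were lower than in Col0, 7 did not pass the test of the difference, and 3 were higher than in Col0, namely rbcL, psbN and ndhH. Under the centring the differences of these 3 were 0.25, 0.32 and 0.35, and that of rbcL no longer passed (limma adjusted p = 0.0964).

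**Figure D1:**
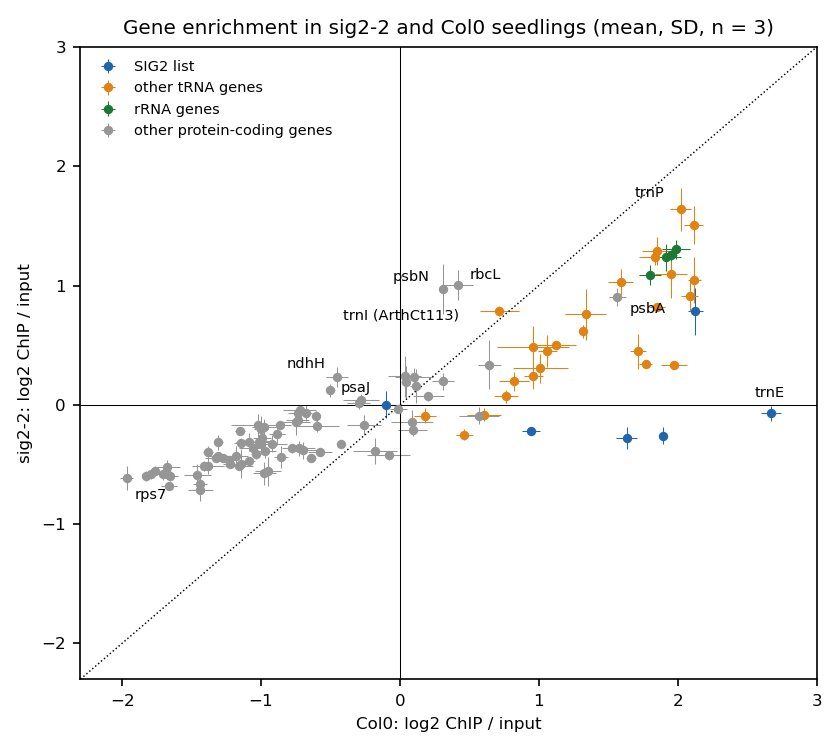
Mean log2 ChIP over input of each of the 113 genes in sig2-2 (vertical axis) and Col0 seedlings (horizontal axis), with SD over 3 ChIP libraries and a dotted line where both are equal. Most tRNA genes and the rRNA genes lie below the dotted line and above 0, genes of the SIG2 list other than trnM lie at or below 0 in sig2-2, and rbcL and psbN lie above the dotted line.

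The rRNA genes, which encode the RNA of the plastid ribosome, all stayed above input. Relative coverage of rrn16S, the RNA of the small subunit, was 1.88, 2.04 and 1.83 in sig2-2 ChIP and 0.740, 0.874 and 0.724 in sig2-2 inputs. The 3 ChIP libraries lay above all 3 inputs. Enrichment of rrn16S was 1.30 ± 0.08 in sig2-2 and 1.99 ± 0.10 in Col0 (log2, SD, n = 3), a difference of −0.68 with a standard error of 0.13 (limma adjusted p = 3.94e-06). All 4 rRNA genes were above input in both lines, with a median enrichment of 1.25 in sig2-2 and 1.93 in Col0, and all 4 were lower in sig2-2 than in Col0. Over all genes 31.9% were above input in sig2-2 and 36.3% in Col0, and 33.6% were lower in sig2-2. rrn23S and rrn4.5S, RNAs of the large subunit, had 1.24 and 1.09 in sig2-2, against 1.92 and 1.80 in Col0. ArthCr091, an rRNA gene listed without a symbol, had 1.25 in sig2-2 and 1.95 in Col0. The tRNA genes trnI (ArthCt107) and trnA, which lie between rrn16S and rrn23S, had 1.24 and 1.29 in sig2-2 and 1.84 and 1.85 in Col0.

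**Figure D2:**
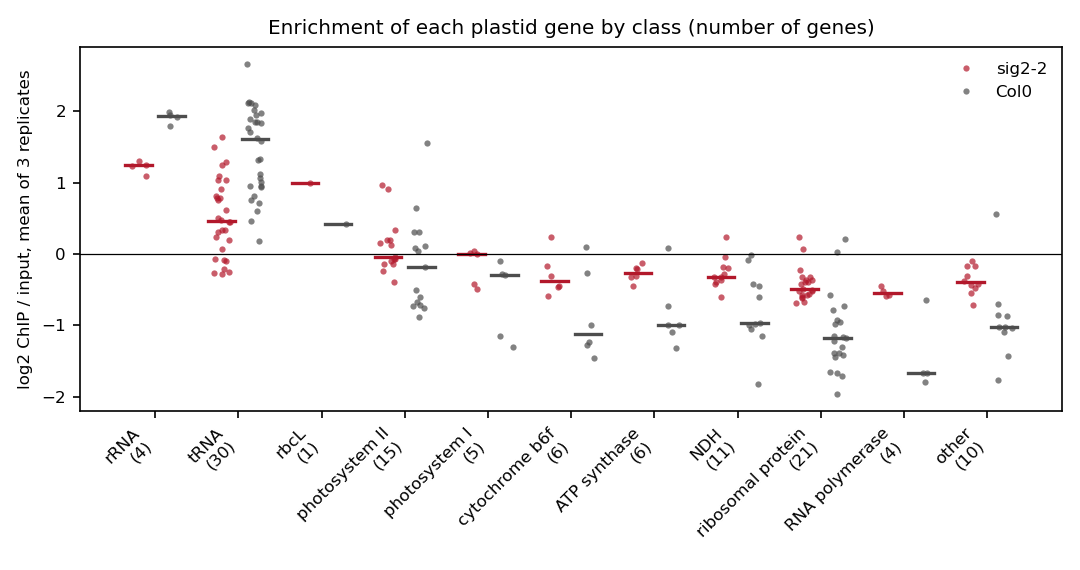
Log2 ChIP over input of every gene by class in sig2-2 (left of each pair) and Col0 seedlings (right), each point the mean of 3 replicates and each bar the median of the class, with the number of genes in brackets. The rRNA genes stay together above 1 in sig2-2, the tRNA genes spread from −0.28 to 1.64, and most other classes lie below 0 in both lines but closer to it in sig2-2.

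Of the 30 tRNA genes, all of which were above input in Col0, 22 were above input in sig2-2, 4 were below it (none with median-gene centring) and 4 did not pass. Over all genes 31.9% were above and 51.3% below input in sig2-2, and 36.3% were above it in Col0. The tRNA genes had a median enrichment of 0.47 in sig2-2 and 1.61 in Col0, beside −0.17 and −0.50 over all genes. In the test of the difference 28 tRNA genes were lower in sig2-2 and none higher, beside 33.6% and 53.1% of all genes. The tRNA genes that did not pass it were trnH and trnI (ArthCt113). The tRNA genes thus ranged in sig2-2 from the highest enrichment of any plastid gene to values below input.

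The highest gene of the sig2-2 ChIP was trnP, a proline tRNA gene. Its relative coverage was 2.76, 2.46 and 3.15 in sig2-2 ChIP, against 0.891, 0.913 and 0.874 in sig2-2 inputs, and 3.48, 3.85 and 3.72 in Col0 ChIP, against 0.941, 0.897 and 0.884 in Col0 inputs. The sig2-2 ChIP values lay above all inputs and below all Col0 ChIP values. Enrichment was 1.64 ± 0.18 in sig2-2 and 2.02 ± 0.08 in Col0 (SD, n = 3), a difference of −0.38 (SE 0.12, limma adjusted p = 0.0034). It ranked 1st of 113 genes in sig2-2 and 6th in Col0.

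The leucine tRNA gene trnL (Arthct122) came next with 1.51 ± 0.16 in sig2-2 and 2.11 ± 0.07 in Col0. The threonine tRNA gene trnT had 1.09 ± 0.20 in sig2-2 and 1.95 ± 0.12 in Col0. The glycine tRNA gene trnG (ArthCt116) had 1.04 ± 0.20 in sig2-2 and 2.12 ± 0.05 in Col0, and trnR (ArthCt127) 1.03 in sig2-2 and 1.59 in Col0. All 4 were lower in sig2-2 than in Col0 by limma (differences of −0.61, −0.86, −1.07 and −0.56). Genes this short can share DNA fragments with their neighbours, and the fragment length is not given in the sources used here.

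The tRNA gene whose enrichment moved least was trnI (ArthCt113), named after its values were seen. Its relative coverage was 1.77, 1.67 and 1.72 in sig2-2 ChIP and 1.82, 1.76 and 1.52 in Col0 ChIP, and these ranges overlapped. Enrichment was 0.78 ± 0.04 in sig2-2 and 0.72 ± 0.14 in Col0, and the difference of 0.07 (SE 0.10) did not pass (limma adjusted p = 0.503). With median-gene centring the difference was −0.27 and did not pass either (limma adjusted p = 0.0532).

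At the other end of the tRNA genes stood trnE, trnY, trnD and trnV (ArthCt103) of the SIG2 list. The list was chosen from what is known of SIG2, but with earlier results of these data known. Also at this end were trnK, trnS (ArthCt125) and trnL (ArthCt126), which are not on the list, with −0.08, −0.09 and −0.25 in sig2-2. trnE, the glutamate tRNA gene, had a relative coverage of 0.904, 0.854 and 0.825 in sig2-2 ChIP and 0.930, 0.960 and 0.831 in sig2-2 inputs, with overlapping ranges, and 5.16, 5.48 and 5.68 in Col0 ChIP. Its enrichment was −0.07 ± 0.07 in sig2-2 and 2.67 ± 0.07 in Col0, a difference of −2.75 (SE 0.12, limma adjusted p = 2.91e-23). trnE ranked 47th in sig2-2 and 1st in Col0. The tyrosine tRNA gene trnY had −0.26 in sig2-2 and 1.89 in Col0, the aspartate tRNA gene trnD −0.22 in sig2-2 and 0.94 in Col0, and the valine tRNA gene trnV (ArthCt103) −0.28 in sig2-2 and 1.63 in Col0.

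trnM, the methionine tRNA gene beside trnV, was the member of that list that stayed above input. Its relative coverage was 1.65, 1.35 and 1.76 in sig2-2 ChIP and 0.911, 0.902 and 0.934 in sig2-2 inputs, against 3.88, 4.17 and 4.04 in Col0 ChIP. Its enrichment was 0.78 ± 0.20 in sig2-2 and 2.13 ± 0.05 in Col0, lower by limma in sig2-2 (difference −1.34, adjusted p = 4.42e-13). psaJ, a small subunit of photosystem I, had 0.00 ± 0.11 in sig2-2 and −0.10 ± 0.12 in Col0 and passed in neither line. Over the 6 genes of the list 1 was above input in sig2-2 and 3 were below it, against 5 above and none below in Col0. Of the list 5 were lower in sig2-2 than in Col0. Over all genes 31.9% were above and 51.3% below input in sig2-2, 36.3% above and 55.8% below in Col0, and 33.6% lower than in Col0. The share of the list below input in sig2-2 was thus near that of all genes. With median-gene centring 2 genes of the list were above input in sig2-2, none below it, and all 6 were lower than in Col0. The initiator tRNA gene trnfM and the serine tRNA gene trnS (ArthCt117), which are not on the list, also stood among the 5 largest losses, with 0.34 each in sig2-2 and 1.97 and 1.77 in Col0.

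Of the 79 protein-coding genes 10 were above input in sig2-2 and 54 below it, against 7 above and 63 below in Col0. Over all genes 31.9% were above and 51.3% below in sig2-2, and 36.3% and 55.8% in Col0. With median-gene centring 19 protein-coding genes were above input in sig2-2 and 44 below it. With scaling to the total the 10 were rbcL, psbN, psbA, psbI, rpl33, petN, ndhH, psbZ, psbD and psbC. Of these rpl33, petN, psbD and psbC did not pass in Col0, and none of the 4 passed the test of the difference between the lines. Protein-coding genes as a class were higher in sig2-2 than in Col0 at 60 of 79 and lower at 6, beside 53.1% and 33.6% of all genes. Their median difference was 0.65, beside 0.36 over all genes. With median-gene centring 50 protein-coding genes were higher and 17 lower.

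rbcL, which encodes the large subunit of Rubisco, was the highest protein-coding gene of sig2-2. Its relative coverage was 2.14, 1.91 and 1.81 in sig2-2 ChIP and 0.968, 1.01 and 0.945 in sig2-2 inputs, and it was 1.42, 1.22 and 1.28 in Col0 ChIP. All sig2-2 ChIP values lay above all Col0 ChIP values. Enrichment was 1.00 ± 0.13 in sig2-2 and 0.42 ± 0.11 in Col0, a difference of 0.59 (SE 0.11, limma adjusted p = 3.42e-06). rbcL ranked 12th in sig2-2 and 37th in Col0.

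psbN, an assembly factor of photosystem II encoded opposite psbT and psbH, had a relative coverage of 1.95, 1.46 and 1.76 in sig2-2 ChIP and 1.09, 1.11 and 1.10 in Col0 ChIP, without overlap. Its enrichment was 0.97 ± 0.21 in sig2-2 and 0.31 ± 0.01 in Col0 (difference 0.66, limma adjusted p = 3.08e-07). Coverage carries no strand, so psbN cannot be told apart from transcription complexes on the opposite genes. ndhH, a subunit of the NADH dehydrogenase-like complex, had 0.24 ± 0.09 in sig2-2 and −0.45 ± 0.08 in Col0 (difference 0.69, limma adjusted p = 1.35e-07).

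psbA, which encodes the D1 protein of photosystem II, went the other way among protein-coding genes. Its relative coverage was 1.87, 2.03 and 1.84 in sig2-2 ChIP and 1.04, 1.03 and 0.993 in sig2-2 inputs, against 3.11, 2.90 and 2.89 in Col0 ChIP. Enrichment was 0.91 ± 0.08 in sig2-2 and 1.56 ± 0.06 in Col0, a difference of −0.66 (SE 0.10, limma adjusted p = 2.33e-07). psbA was above input in both lines and lower in sig2-2. psaA, a core protein of photosystem I, had 0.04 ± 0.05 over the gene in sig2-2 and −0.28 ± 0.13 in Col0; the difference of 0.32 passed (limma adjusted p = 0.00521) but was −0.02 with median-gene centring.

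Genes known for the other sigma factors (psbA, rbcL, psbB, psbT, psbH, psbN, psbD, psbC, ndhF, atpH, psaA and psaB) had a median enrichment of 0.03 in sig2-2 and −0.29 in Col0. Of these 12 genes 5 were above input and 2 below it in sig2-2, against 3 above and 7 below in Col0; over all genes 31.9% were above and 51.3% below in sig2-2. With median-gene centring 9 were above input in sig2-2 and none below. Enrichment was higher in sig2-2 than in Col0 at 9 and lower at 1, which was psbA, beside 53.1% and 33.6% of all genes; psbD and psbC did not pass. The median difference over the list was 0.60 with scaling to the total. With median-gene centring it was 0.26, with 6 genes higher and 3 lower.

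The lowest enrichment in sig2-2 was that of ycf1 (Arthcp087), a gene for an envelope protein, with −0.72 ± 0.09 in sig2-2 and −1.44 ± 0.09 in Col0. The ribosomal protein genes rps3, rpl16, rps7 and rps2 had −0.69, −0.67, −0.61 and −0.60 in sig2-2 and −1.66, −1.44, −1.97 and −1.66 in Col0, and ndhB had −0.60 in sig2-2 and −1.83 in Col0. rpoB, a core subunit of PEP transcribed by NEP, had a relative coverage of 0.681, 0.735 and 0.697 in sig2-2 ChIP and 0.293, 0.323 and 0.330 in Col0 ChIP. Its enrichment was −0.52 ± 0.06 in sig2-2 and −1.67 ± 0.09 in Col0 (difference 1.15, limma adjusted p = 3.2e-08).

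The list of genes known for NEP promoters holds 8 entries, among them both entries of ycf1, which share sequence. None of the 8 was above input in either line, 7 were below it in sig2-2 and 8 in Col0, beside 51.3% and 55.8% of all genes. All 8 were nearer to input in sig2-2, with a median of −0.54 in sig2-2 and −1.56 in Col0, where 53.1% of all genes were higher in sig2-2. rpoC2 and ycf2 of this list, and rps7 and ndhB, which are not on it, had the other 4 of the 5 largest differences, between 1.21 and 1.35. With each library scaled to its own total, these values are shares of the recovered DNA.

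The genes of sig2-2 were also closer together. The SD of log2 enrichment across the 113 genes was 0.599, 0.565 and 0.567 in the sig2-2 ChIP libraries, against 1.25, 1.26 and 1.21 in the Col0 ChIP libraries. The libraries of the lines did not overlap, with a difference of −0.66 (exact permutation test, two-sided, p = 0.1, the smallest that 3 against 3 libraries can give). Apart from the pseudocount, this measure does not depend on how a library is scaled.

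To locate the binding within and between genes, the folded genome was divided into 2564 windows of 50 bp. A window was called clear when its limma adjusted p was under 0.05 and each of the 3 ChIP libraries stood at least 2-fold above the mean of the 3 inputs, and clear windows with at most 1 window between them formed a site of at least 2. By the adjusted p alone, 479 windows were above input in sig2-2 (18.7%) and 1601 below it (62.4%), against 590 above (23%) and 1828 below (71.3%) in Col0. Enrichment was higher in sig2-2 than in Col0 at 1774 windows (69.2%) and lower at 481 (18.8%), so that a window of a site that was higher in sig2-2 shared this with most of the genome. In sig2-2, 191 windows were clear (7.45%), against 331 in Col0 (12.9%). The 181 windows that were clear in both lines made up 94.8% of those of sig2-2 and 54.7% of those of Col0. Of the 191 clear windows of sig2-2, 55 touched no annotated gene, as did 680 of all 2564 windows.

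These windows formed 20 sites over 9550 bp in sig2-2 and 21 sites over 16450 bp in Col0. The sites and summit windows of a line were taken where that line was high. This favours that line in the differences, p-values and ranks given for them below. With each ChIP library set against the input of its own replicate number, 13 sites were found in sig2-2. Of the 20 sites, 7 lay in the rRNA operon of the inverted repeat and held 7050 bp, and 6 overlapped a tRNA gene. 19 of the 20 sites (95%) shared a clear window with Col0; the exception lay inside rbcL, at plastid positions 55751 to 55850. From the side of Col0, 11 of the 21 sites (52.4%) kept a clear window in sig2-2 and 10 did not. The count followed the rule: 7 kept at least a share of 0.5 of their clear windows. With sites of both lines redrawn at a limit of log2 1.5 the number was 5, of the redrawn Col0 sites and not of the 21. Median-window centring left 13 of these 21 with a clear window in sig2-2, and with the Col0 sites redrawn under it 17 of 35.

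Among the sites as drawn in sig2-2, the one with the highest mean lay beside psaA, at 41951 to 42150. This order depends on the borders: over the shorter Col0 site beside rbcL, 54701 to 54900, the sig2-2 mean was 2.197. In the summit window of the psaA site, 42001 to 42050, relative coverage was 5.74, 4.24 and 5.43 in sig2-2 ChIP. It was 0.960, 0.981 and 0.988 in sig2-2 inputs, and 4.34, 3.59 and 4.05 in Col0 ChIP. The ranges of the ChIP libraries overlapped at the lowest sig2-2 value, while in each of the 3 replicate numbers the sig2-2 value was the higher. The mean over the site was 1.99 ± 0.19 in sig2-2 and 1.66 ± 0.11 in Col0 (log2, SD, n = 3). Of its 4 windows 3 were higher in sig2-2 by limma, while the summit window did not pass (difference 0.32, adjusted p = 0.0546). It passed with the replicate number as a block, within each line (limma adjusted p = 0.0247) or across the lines (0.0414). The summit was the 4th highest window of 2564 in sig2-2 and the 59th in Col0. psaA itself stood near input over its length in sig2-2.

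The highest single window in both lines lay in the spacer between trnL (ArthCt101) and trnF, at 47551 to 47600. Its relative coverage was 6.47, 5.24 and 6.45 in sig2-2 ChIP, against 8.82, 8.49 and 9.40 in Col0 ChIP, without overlap. The site around it, 47401 to 47850, had 1.84 ± 0.13 in sig2-2 and 2.70 ± 0.05 in Col0, and all 9 of its windows were lower in sig2-2. A further site beside trnF, 48351 to 48450, had 1.43 ± 0.20 in sig2-2 and 2.56 ± 0.07 in Col0, and one on the other side of trnL (ArthCt101), 46701 to 46850, had 1.61 ± 0.26 in sig2-2 and 2.12 ± 0.13 in Col0.

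The site at the edge of rbcL, 54651 to 55050, held the second highest window of sig2-2, 54751 to 54800. Relative coverage there was 6.67, 4.56 and 5.87 in sig2-2 ChIP, against 0.979, 1.01 and 1.05 in sig2-2 inputs, and 4.46, 3.63 and 4.40 in Col0 ChIP. All sig2-2 ChIP values lay above the Col0 ChIP values. The site mean was 1.74 ± 0.21 in sig2-2 and 1.25 ± 0.12 in Col0, with 6 of 8 windows higher in sig2-2 and the summit window short of the threshold (difference 0.43, limma adjusted p = 0.0615). It passed with the block within lines (0.0136) or across them (0.0478). The summit ranked 63rd in Col0.

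Beside psbE, which encodes a subunit of cytochrome b559 in photosystem II, the site at 64351 to 64500 had 1.64, 1.39 and 1.79 in the sig2-2 libraries, against 1.03, 1.25 and 1.44 in the Col0 libraries. The ranges overlapped, and the sig2-2 value was the higher in all 3 replicate numbers. All 3 of its windows were higher in sig2-2, and its summit differed by 0.41 (SE 0.14, limma adjusted p = 0.00722). The site where ndhA and ndhH meet, 122001 to 122150, had 1.65 ± 0.21 in sig2-2 and 1.24 ± 0.13 in Col0, with 2 of 3 windows higher in sig2-2; its summit passed with the block within lines (limma adjusted p = 0.00991, against 0.0533 without). The summits beside psbE and at ndhH ranked 18th and 15th in sig2-2 and 296th and 277th in Col0.

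At these 5 sites, beside psaA and psbE, at ndhH and the pair in rbcL, some windows were higher in sig2-2 and none lower. The call depended on the scaling. When libraries were centred on their median window, an alternative chosen after the values were seen, the change at all windows shifted by −0.57, the 5 site differences became −0.25, −0.21, −0.16, −0.08 and −0.0022 (psaA, psbE, ndhH and the larger and the smaller rbcL site), and no window of theirs passed. At the other 15 sites of sig2-2 some or all windows were lower than in Col0, and at 14 all were; these differences grew to between −0.997 and −1.70 under the same centring.

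The other sites of sig2-2 were tRNA, rRNA and psbA sites. In the rRNA operon the first site, 100801 to 104200, ran over rrn16S, trnI (ArthCt107) and into trnA with 1.31 ± 0.07 in sig2-2 and 1.95 ± 0.10 in Col0. Its summit, at 100901 to 100950 beside rrn16S, had 2.19 in sig2-2, where it ranked 8th, and 2.98 in Col0, where it ranked 4th. The other operon sites had means of 1.19 to 1.37 in sig2-2 and 1.87 to 2.09 in Col0, and every window of the 7 sites was lower in sig2-2. The psbA site, 1301 to 1550, had 1.33 ± 0.07 in sig2-2 and 2.09 ± 0.03 in Col0, with all 5 windows lower in sig2-2.

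The sites at trnL (Arthct122) and trnP both had 1.44 in sig2-2, against 2.07 and 1.86 in Col0. The site at trnT had 1.33 in sig2-2 and 1.95 in Col0, on inputs that were below the plastid average in its summit window (0.437, 0.534 and 0.664 in sig2-2). The difference at that window passed only with the block, within lines (limma adjusted p = 4.58e-05, against 0.0918 without) or across them (0.0378). The site beside trnC had 1.27 in sig2-2 and 1.73 in Col0, while over the trnC gene itself enrichment was 0.20 in sig2-2 and 0.82 in Col0.

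**Figure D3:**
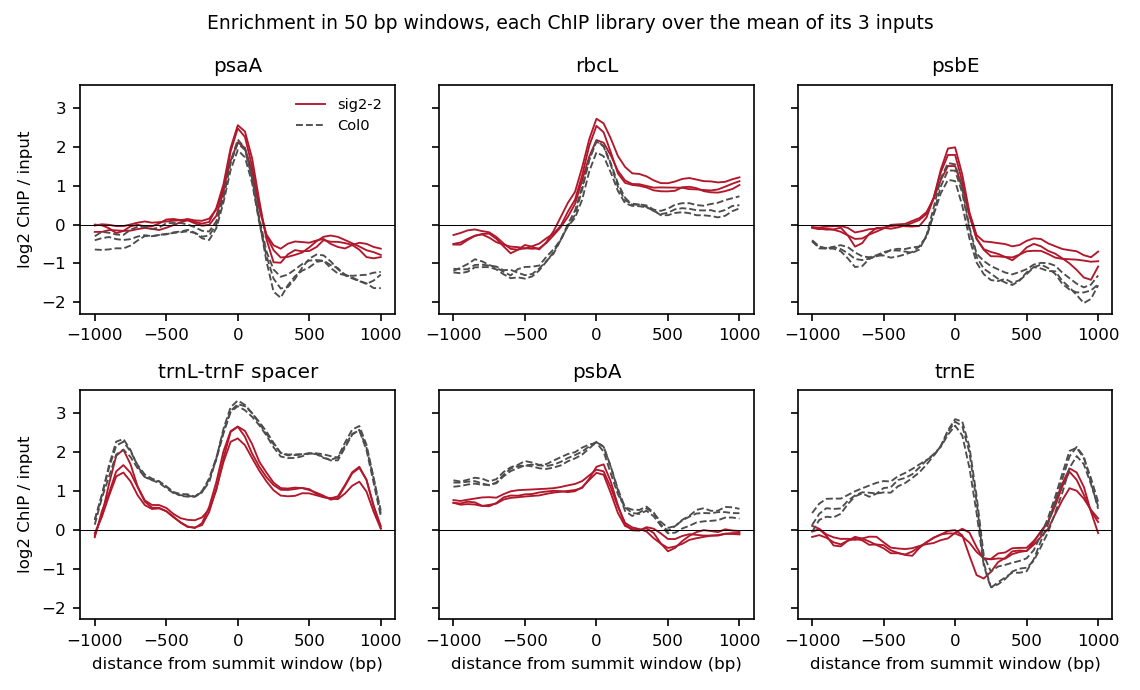
Log2 ChIP over input in 50 bp windows by distance from the summit window, for each of the 3 sig2-2 (solid red) and 3 Col0 libraries (dashed grey). The peaks beside psaA, rbcL and psbE are as high or higher in the mean of sig2-2 than in that of Col0, with shallower troughs beside them, those at the trnL-trnF spacer and psbA are lower in sig2-2, and trnE has no peak in sig2-2; the peak right of trnE is that at trnT.

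Peak height over the gene beside it does not depend on the scaling of a library, and was taken as a description after the sites were seen. The summit beside psaA stood 2.34 ± 0.27 log2 units above the psaA gene in sig2-2 and 2.35 ± 0.01 in Col0. The rbcL summit stood 1.48 ± 0.24 above the gene in sig2-2 and 1.64 ± 0.11 in Col0, and the psbE summit 1.64 ± 0.30 in sig2-2 and 1.85 ± 0.20 in Col0. For psbA the values were 0.65 ± 0.11 in sig2-2 and 0.70 ± 0.07 in Col0, and for rrn16S 0.89 ± 0.21 in sig2-2 and 1.00 ± 0.21 in Col0. At all 5 genes the sig2-2 and Col0 libraries overlapped. No test was run, and an overlap of 3 libraries with 3 does not show that the heights are equal.

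The 10 Col0 sites without a clear window in sig2-2 all overlapped a tRNA gene, as did 6 of the 11 that kept one. Under median-window centring trnQ and the site over trnG (ArthCt116), trnfM and rps14 had a clear window as well, and of the 18 redrawn Col0 sites without one 11 overlapped a tRNA gene. With scaling to the total, the site means of the 10 ranged from −0.31 to 0.74 in sig2-2 and from 1.07 to 1.94 in Col0. Those of the 11 ranged from 0.96 to 2.197 in sig2-2 and from 1.36 to 2.23 in Col0. The trnY and trnE site had −0.34, −0.32 and −0.28 in the sig2-2 libraries and a mean of 1.94 ± 0.08 in Col0. The trnV (ArthCt103) and trnM site had −0.02 ± 0.10 in sig2-2 and 1.75 ± 0.02 in Col0. Of the 3 sig2-2 libraries 2 stood above input over this second site (0.05, −0.13 and 0.02). Its summit window beside trnM, 52001 to 52050, still had 0.87 in sig2-2, against 2.39 in Col0. Relative coverage there was 1.79, 1.43 and 2.03 in sig2-2 ChIP and 0.974, 0.913 and 0.957 in sig2-2 inputs. Under median-window centring the sig2-2 means of the trnY and trnE site and of this second site were 0.03 and 0.32.

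The remaining 8 had a mean above input and under 2-fold in every sig2-2 library. The trnK site had 0.16 in sig2-2 and 1.45 in Col0, and trnS (ArthCt117) had 0.29 in sig2-2 and 1.54 in Col0. ArthCt100, a tRNA gene listed without a symbol, had 0.30 in sig2-2 and 1.07 in Col0, and trnG (ArthCt092) 0.44 in sig2-2 and 1.67 in Col0. trnS (ArthCt091) had 0.59 in sig2-2 and 1.18 in Col0, and the site over trnG (ArthCt116), trnfM and rps14 0.65 in sig2-2 and 1.92 in Col0. trnQ, a glutamine tRNA gene, had 0.69 in sig2-2 and 1.77 in Col0. trnH, a histidine tRNA gene, had 0.74 ± 0.23 in sig2-2 and 1.30 ± 0.14 in Col0, and neither of its 2 windows passed the test of the difference. Coverage of the trnH gene was far under the plastid average in the sig2-2 inputs, at 0.128, 0.187 and 0.195.

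**Figure D4:**
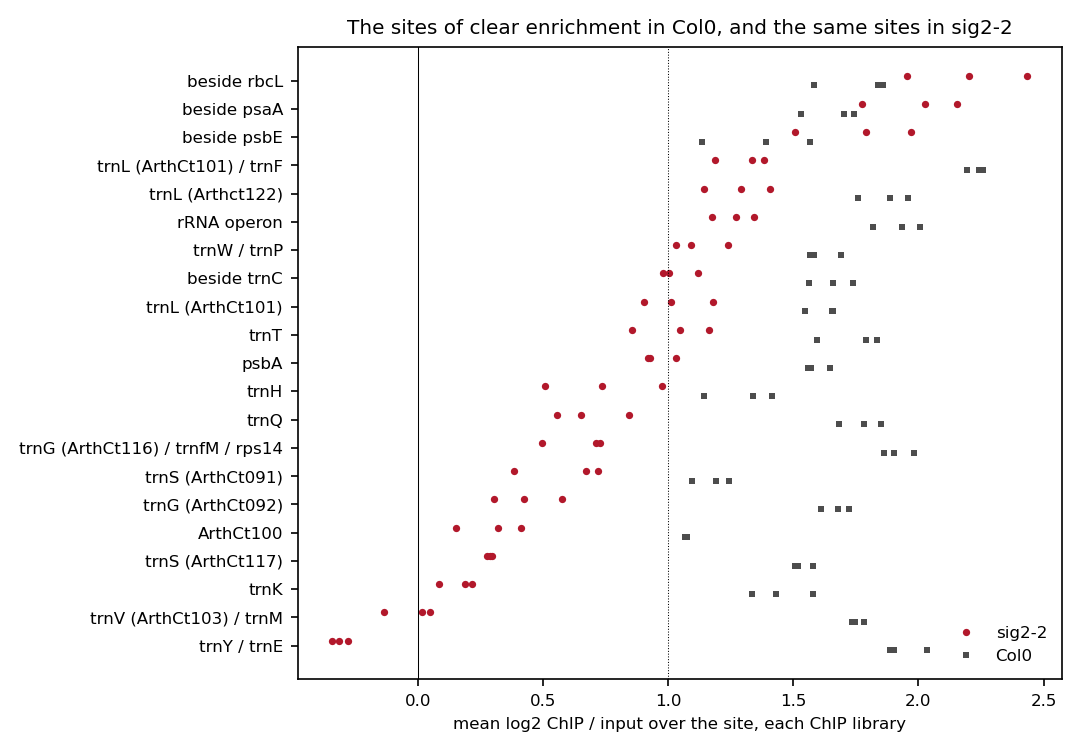
Mean log2 ChIP over input over each of the 21 Col0 sites in the 3 sig2-2 (red circles) and 3 Col0 libraries (grey squares), ordered by the sig2-2 mean, with a dotted line at the 2-fold limit. The rbcL, psaA and psbE sites lead in sig2-2 although they are not the highest in Col0, and the trnY and trnE site is last.

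Lowering the limit to 1.5-fold (log2 of 0.58) brought in further places. They were drawn from the sig2-2 values, which favours sig2-2 in a comparison with Col0, also under centring. Those named here were chosen after their values were seen. The highest of them lay beside atpI, a subunit of the ATP synthase, at 13851 to 14000. Relative coverage of its summit window was 2.93, 2.14 and 3.19 in sig2-2 ChIP and 0.947, 0.914 and 0.926 in sig2-2 inputs, against 1.09, 1.24 and 1.63 in Col0 ChIP. The sig2-2 ChIP values lay above all Col0 ChIP values. The site mean was 1.33 ± 0.28 in sig2-2 and 0.32 ± 0.28 in Col0, all 3 windows were higher in sig2-2, and they remained so with median-window centring, where the site difference was 0.44. The atpI gene itself was below input, at −0.44 in sig2-2 and −1.32 in Col0.

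At psbN and psbH, 74301 to 74500, the site mean was 1.09 ± 0.22 in sig2-2 and 0.49 ± 0.10 in Col0, with all 4 windows higher in sig2-2, and a difference of 0.03 under that centring. A site beside psbB, which encodes a core antenna protein of photosystem II, at 72151 to 72250, had 0.80 ± 0.07 in sig2-2 and 0.80 ± 0.10 in Col0. One at trnI (ArthCt113) and ycf2, 86351 to 86500, had 0.96 ± 0.10 in sig2-2 and 1.05 ± 0.15 in Col0. No window of these 2 sites passed the test of the difference. rbcL was covered from 54651 to 56400, with 1.16 in sig2-2 and 0.59 in Col0, and 33 of 35 windows were higher in sig2-2. Sites at trnQ, trnG (ArthCt116) and trnM also came in at this limit, with 0.87, 1.08 and 0.86 in sig2-2. They had 2.02, 2.04 and 2.31 in Col0, and every window of theirs was lower in sig2-2.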

How the data were processed

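Coverage of 24 seedling libraries of 4 lines at each of 154477 plastid positions was analysed as deposited by the authors: whole numbers, an unscaled signal. Per the submitters' processing notes Trim Galore 0.4.1, Bowtie2 2.2.8.9, bedtools 2.25.0 and build TAIR10 were used; the handling of duplicates and of reads that match both repeat copies is not given in the sources used here. Leaf libraries were not used here. Gene spans came from the RefSeq table of TAIR10.1, whose mirrored genes place the inverted repeat as the deposited coverage does (mirror sum of 238649 in both).

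Each library was scaled to a total of 1000000. Mean coverage per gene (113) or 50 bp window (2564), per kb plus 1, was log2 transformed and fitted in limma 3.58.1 (R 4.3.3) on group means with a trended prior, all 24 libraries sharing the spread, with Benjamini-Hochberg adjustment over all genes or windows. The spread between replicates gives the precision: over 1 kb bins the log2 ratio of sig2-2 replicates had an SD of 0.0968 to 0.121 for ChIP and 0.0623 to 0.0791 for input; the ChIP replicates of chl27 (up to 0.317) and chlm (up to 0.246), which enter the spread, differed more. The fits were tested on simulated data. No pair of libraries held identical values.

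Replicate numbers appear in the titles. In sig2-2 the ChIP and input libraries of the same number deviated together (correlations of 0.106, 0.357 and 0.627), in Col0 they did so less (−0.10, −0.05 and 0.413), and ChIP libraries of sig2-2 and Col0 with the same number also did (0.334, 0.378 and 0.426); a block across the lines was added after the data were seen. Named genes were the 12 highest and 6 lowest of sig2-2, the 5 largest differences from Col0 in each direction, rbcL, psbA, psaA, rpoB, rrn16S and the SIG2 list; of the sites, the 15 with the highest mean. Alternatives changed the scaling, pseudocount, filters, windows, thresholds, replicate block and replicates. The genes, lists and sites were chosen with earlier results of these data known.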

Additional observations from a re-analysis of the deposited data

Results flagged for a closer look

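The results listed here are those where enrichment in sig2-2 and Col0 seedlings differed by a test of the difference itself (limma adjusted p under 0.05, log2 units, scaling to the total); all rest on the same 3 Col0 ChIP libraries. Enrichment was higher in sig2-2 at 60 genes and lower at 38. Among the tRNA genes the difference was −2.75 for trnE, −2.15 for trnY, −1.91 for trnV (ArthCt103), −1.64 for trnfM, −1.43 for trnS (ArthCt117), −1.34 for trnM, −1.16 for trnD and −1.07 for trnG (ArthCt116). It was −0.86 for trnT, −0.61 for trnL (Arthct122), −0.59 for trnI (ArthCt107), −0.56 for trnA, −0.56 for trnR (ArthCt127) and −0.38 for trnP. The rRNA genes differed by −0.71 (rrn4.5S), −0.70 (ArthCr091), −0.68 (rrn16S) and −0.68 (rrn23S).

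Among protein-coding genes psbA differed by −0.66. The difference was 1.35 for rps7, 1.23 for ndhB, 1.21 for rpoC2, 1.21 for ycf2, 1.15 for rpoB, 1.06 for rps2, 0.98 for rps3, 0.77 for rpl16, 0.72 for ycf1 (Arthcp087), 0.59 for rbcL and 0.32 for psaA. All of these are differences in shares of the recovered plastid DNA.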

How the results depend on the processing

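Of 871 recomputed values of named genes, 852 kept their direction and their side of the threshold, 9 no longer passed, 2 came to pass and 8 changed sign. The sign changes were at genes near 0: trnE in sig2-2 ChIP against input was 0.12 with median-gene centring and 0.036 with scaling outside the inverted repeats, psaJ ranged from −0.037 to 0.066 when 1 replicate was left out, and with median-gene centring the differences from Col0 were −0.0199 for psaA and −0.24 for psaJ (limma adjusted p = 0.0412). Only genes of at least 300 bp gave 11 genes above input in sig2-2 and 12 lower than in Col0, since most tRNA genes are shorter. Leaving out replicates gave 33 to 36 genes above and 50 to 57 below input. Between the lines 57 to 61 genes were then higher and 34 to 39 lower than in Col0. It also gave 15 to 21 sites in sig2-2, and 11 to 13 kept Col0 sites, of Col0 sites redrawn each time. With the replicate block, genes above and below input were 36 and 58, the same 94 called genes, those higher and lower than in Col0 61 and 40, and sites 13, the 1 count it changed by over 1.5 times; the summit windows at psaA, rbcL, ndhH and trnT also came to pass. The block across lines gave 60 and 38. With the spread of the compared lines alone 37 genes were above and 62 below input, and 62 were higher and 40 lower than in Col0. The sites of sig2-2 numbered 11 in 100 bp windows and 6 at a log2 of at least 1.5. Col0 sites that kept a clear window were 5 of those redrawn at that limit and 17 (of 35) with median-window centring. They were 7 of the 21 when a share of 0.5 of the windows had to be shared. With median-window centring the differences of the sites beside psaA and psbE, at ndhA and ndhH and the larger and smaller in rbcL were −0.25, −0.21, −0.16, −0.079 and −0.0022. Causes were not tested. The planned contrast of the first and last part of long genes and the search of promoters were not run, because they need the strand or the sequence, which were not used here.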
